A study of Mus musculus with 12 samples.

Results

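The 9 genes described here are maternal-effect genes that write, remove or guard DNA methylation in the early mouse embryo: Dppa3, Tet3, Dnmt1, Dnmt3a, Dnmt3b, Dnmt3l, Uhrf1, Trim28 and Zfp57. They were taken as a named list whose rule uses no measured value, though it was drawn up with earlier results of these data known, and all 9 were listed in both deposited tables, out of 20244 genes listed in either table. The tables come from mouse 2-cell embryos. The knockdown table holds 2 control libraries (genotype label WT) and 2 knockdown libraries (Eif1ad3_KD), directed at Eif1ad3 and its variants in embryos of CF1 mice. Per the series text, 1-cell controls were injected with RfxCas13d mRNA alone (it encodes an enzyme that cuts RNA) and knockdown embryos with that mRNA plus guide RNA, while the sample protocol speaks of morpholino oligos and Cas13d protein in oocytes. So a Cas13d reagent was given to controls as well. The immunoprecipitation table holds 2 libraries of RNA recovered with an anti-His antibody and 2 recovered with IgG, the negative control, all labelled Eif1ad3_OE. For these, zygotes were injected with in vitro transcribed mRNA of His-tagged Eif1ad3 at 200 ng/uL, and each replicate pooled 200 cells. The age of the mice and the number of embryos per knockdown or control library are not given in the sources used here.

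In the mouse zygote and 2-cell embryo the parental genomes lose much of the methylation of their cytosines in CpG dinucleotides, both by oxidation and by dilution at replication, while imprinted regions and some repeats keep it. Dppa3 (also called Stella or PGC7) shields the maternal genome from oxidation by the dioxygenase Tet3 and holds back the maintenance machinery of Dnmt1 and its partner Uhrf1. At imprinted regions the zinc finger protein Zfp57 binds methylated DNA and brings in the co-repressor Trim28 (also called KAP1), so that the mark is kept. Dnmt3a and its cofactor Dnmt3l set the maternal imprints in the growing oocyte, and Dnmt3b is the other de novo methyltransferase. The tables count RNA, so they say nothing of protein, of methylation or of isoforms such as the oocyte form of Dnmt1.

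Values are CPM, the reads of a gene scaled to the total of its library, so that 1 read was worth 0.0358 to 0.214 CPM. Whole reads were recovered from them, with 18173916 to 27902514 reads per library in the knockdown table and 4678563 to 8364126 in the immunoprecipitation table. A floor of 3 reads was 0.108 to 0.165 CPM in the first table and 0.359 to 0.641 CPM in the second. The labelled stage was checked on marker lists: the 12 listed markers of the 2-cell stage summed to 3735 to 5119 CPM in the knockdown table, while 8 listed cumulus and granulosa cell markers summed to 22.2 to 42.5 CPM and 6 listed morula and blastocyst markers to 12.5 to 39.9 CPM. Among the His and IgG libraries, 2-cell markers summed to 690.4 to 1356 CPM, cumulus and granulosa markers to 0 to 61.0 CPM, and morula and blastocyst markers to 107 and 70.6 CPM with His and to 116 and 3.21 CPM with IgG. Oocyte and maternal markers, a list of 10, gave sums of 8682 (A) and 3970 (B) after knockdown, against 4430 (A) and 3813 (B) in controls. For IgG the sums were 3645 (A) and 4313 (B), and for His 12579 (A) and 12742 (B). This list exceeded the 2-cell list in knockdown replicate A and in all His and IgG libraries, but not in controls or knockdown replicate B. Both lists were detected in every library, so the sums do not settle the stage. Eif1ad3, the targeted gene, was at 839 (A) and 663 (B) CPM in controls against 277 (A) and 377 (B) with knockdown (limma, adjusted p = 0.859). With His it was at 80.3 (A) and 83.6 (B) CPM and with IgG at 1.35 (A) and 30.8 (B), and this difference did not pass either (log2 fold change 3.26, limma, adjusted p = 0.252). The labels do not say whether replicates came from separate cultures or mice, so p-values measure only the spread between these libraries, which may be technical. CPM are not scaled for gene length and no transcript lengths were used, so levels of single genes are compared between libraries and not with each other, and the marker sums only say whether a list was detected.

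Because counting was per gene, a value sums over every transcription start of that gene. The RefSeq promoter table (GRCm38.p6; windows of 300 bases, 250 before and 50 after a start) matched 8 of the 9 members, with 17 windows. It holds 3 windows each for Dnmt1, Dnmt3a, Dnmt3l and Zfp57, 2 for Uhrf1 and 1 each for Tet3, Dnmt3b and Trim28. The 3 Dnmt1 windows are shown because they make plain what 1 Dnmt1 value pools. Those of Trim28 and of the first Zfp57 start were picked by their knockdown values. Trim28 was the member that separated by group, as 36.5% of all genes did, and Zfp57 had the widest gap between knockdown replicates. Each is written 5′ to 3′ on the strand of the gene, with CpG dinucleotides in capitals.
Dnmt1 at chr9:20959839-20960138, minus strand: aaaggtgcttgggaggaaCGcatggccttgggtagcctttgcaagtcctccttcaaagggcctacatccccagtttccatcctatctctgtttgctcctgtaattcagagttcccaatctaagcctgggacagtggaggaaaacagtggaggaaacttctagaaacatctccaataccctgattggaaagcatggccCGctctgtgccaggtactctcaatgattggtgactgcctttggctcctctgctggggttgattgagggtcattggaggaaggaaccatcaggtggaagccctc
Dnmt1 at chr9:20952930-20953229, minus strand: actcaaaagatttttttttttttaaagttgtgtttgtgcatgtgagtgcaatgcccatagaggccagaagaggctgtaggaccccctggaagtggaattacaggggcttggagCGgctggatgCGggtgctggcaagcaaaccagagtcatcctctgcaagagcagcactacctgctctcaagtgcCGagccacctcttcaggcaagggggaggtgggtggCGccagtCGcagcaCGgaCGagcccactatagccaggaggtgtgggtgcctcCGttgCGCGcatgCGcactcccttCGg
Dnmt1 at chr9:20952574-20952873, minus strand: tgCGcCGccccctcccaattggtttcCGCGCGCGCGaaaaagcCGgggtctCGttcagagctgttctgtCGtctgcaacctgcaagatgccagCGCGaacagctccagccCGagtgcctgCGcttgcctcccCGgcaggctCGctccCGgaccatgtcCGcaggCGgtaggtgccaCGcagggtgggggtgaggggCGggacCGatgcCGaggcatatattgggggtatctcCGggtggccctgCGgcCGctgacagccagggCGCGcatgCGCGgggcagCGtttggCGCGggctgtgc
Trim28 at chr7:13023902-13024201, plus strand: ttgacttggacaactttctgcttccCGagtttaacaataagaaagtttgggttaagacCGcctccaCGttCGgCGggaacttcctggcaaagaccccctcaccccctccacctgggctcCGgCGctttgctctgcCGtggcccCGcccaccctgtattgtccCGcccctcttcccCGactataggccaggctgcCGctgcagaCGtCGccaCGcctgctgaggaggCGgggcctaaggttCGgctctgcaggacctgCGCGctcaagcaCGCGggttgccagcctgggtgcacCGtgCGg
Zfp57 at chr17:37000913-37001212, plus strand: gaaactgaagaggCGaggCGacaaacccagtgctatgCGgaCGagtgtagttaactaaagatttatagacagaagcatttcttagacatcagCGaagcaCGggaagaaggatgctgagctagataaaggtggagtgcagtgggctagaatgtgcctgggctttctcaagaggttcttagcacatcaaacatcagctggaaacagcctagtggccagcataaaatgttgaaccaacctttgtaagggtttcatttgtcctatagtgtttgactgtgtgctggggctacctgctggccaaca
The 3 Dnmt1 windows held 2, 12 and 33 CpG dinucleotides, against a median of 7 over all 32851 windows of the table. The Trim28 window held 23, and the first Zfp57 window 6. The letters TGCCGC, known as the motif of Zfp57, were searched on both strands. They were in 4 of the 17 member windows (Tet3, Trim28 and 2 overlapping windows of Dnmt3a) and in 11.6% of all windows.

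In the knockdown comparison no member passed the test, and Trim28 was the member whose libraries separated by group. Of the 9 members, 0 had an adjusted p under 0.05 (limma on log2(CPM + 1) over 13332 genes tested, Benjamini-Hochberg adjustment), as did 0% of all genes. At an unadjusted p under 0.05 there was 1 member, Trim28, against 5.45% of all genes. On the recovered reads edgeR and DESeq2 also called 0 members, each with 1 at an unadjusted p under 0.05. Of all 13332 genes, 758 were under it with edgeR and 1029 with DESeq2. After adjustment edgeR called 0 of all genes and DESeq2 15. The groups did not overlap, with both knockdown libraries on the same side of both controls, for 1 of 9 members, again Trim28, against 36.5% of all genes (18.1% higher and 18.4% lower in knockdown). The other 8 members overlapped between the groups. The median log2 fold change of the members was -0.08, and that of all genes 0.02, with 4 members above 0 and 5 below it. With 2 libraries against 2, an exact permutation test cannot give a two-sided p below 0.333, so none was run on single genes.

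Dppa3, the protector of the maternal genome, was at 9088 (A) and 6393 (B) CPM in controls against 7803 (A) and 6026 (B) with knockdown. These ranges overlapped, and even the lowest library had 109524 Dppa3 reads. Controls averaged 7740 ± 1905 CPM and knockdown embryos 6915 ± 1256 CPM (SD, n = 2 each). The log2 fold change was -0.15, with a 95% confidence interval of -0.91 to 0.61 (limma, adjusted p = 0.975).

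Tet3, the oxidase active on the paternal genome, was at 108 (A) and 105 (B) CPM in controls against 135 (A) and 86.3 (B) with knockdown. The controls sat between the knockdown replicates. Its log2 fold change was 0.02, with an interval of -0.83 to 0.87 (limma, adjusted p = 0.998).

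The maintenance pair showed the same order of libraries, as did Tet3, Dnmt3a and Zfp57. Dnmt1, which copies methylation onto new DNA strands, was at 60.7 and 56.1 CPM in controls, 78.6 CPM in knockdown replicate A and 18.4 CPM in knockdown replicate B (334 reads). Uhrf1, which recruits Dnmt1 to hemimethylated sites, was at 79.3 and 50.8 CPM in controls, 99.0 CPM in knockdown replicate A and 36.1 CPM in replicate B. For both genes replicate A was above and replicate B below the 2 controls. The log2 fold change of Dnmt1 was -0.59, with an interval of -2.04 to 0.85 (limma, adjusted p = 0.911). That of Uhrf1 was -0.08, with an interval of -1.30 to 1.13 (limma, adjusted p = 0.997).

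Among the de novo enzymes, Dnmt3a was at 60.4 (A) and 54.1 (B) CPM in controls against 64.9 (A) and 50.6 (B) with knockdown, so the controls lay inside the knockdown range. Its log2 fold change was 0.0025, with an interval of -0.86 to 0.87 (limma, adjusted p = 0.999). Dnmt3l, which has no catalytic activity of its own and stimulates Dnmt3a, was at 51.9 (A) and 62.3 (B) CPM in controls against 90.5 (A) and 40.1 (B) with knockdown. Again the controls lay between the knockdown replicates, and the log2 fold change was 0.08 (interval -0.99 to 1.16; limma, adjusted p = 0.995). Dnmt3b had few reads, 74 and 242 in controls and 122 and 91 in knockdown embryos, or 2.96, 9.72, 4.37 and 5.01 CPM. Its knockdown libraries lay inside the range of the controls (log2 fold change -0.20, interval -1.68 to 1.28; limma, adjusted p = 0.986).

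Of the imprint guards, Trim28 was at 149 (A) and 155 (B) CPM in controls against 87.2 (A) and 62.5 (B) with knockdown. Each knockdown library was lower than each control, an order that 18.4% of all genes tested showed in this direction. The mean of 74.9 ± 17.5 CPM in knockdown embryos was 49.3% of the control mean of 152 ± 4.53 CPM (SD, n = 2 each). On the log2 scale the difference was -1.03 (SE 0.35, interval -1.85 to -0.21), and 3.41% of genes had a fold change as low or lower. The limma p was 0.0195 and the limma adjusted p over all genes 0.859, so the difference did not pass.

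Zfp57 was at 221 (A) and 179 (B) CPM in controls, 687 CPM in knockdown replicate A (19174 reads) and 57.8 CPM in knockdown replicate B (1050 reads). Its knockdown replicates thus lay on opposite sides of the controls, 11.9-fold apart. The log2 fold change of 0.0066 is a mean of these opposite values, and its interval was the widest of the 9 members, -2.15 to 2.17 (limma, adjusted p = 0.999). On the recovered reads, where the mean is taken before the log, it was 0.80 with edgeR and 0.78 with DESeq2, and neither passed.

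**Figure D1:**
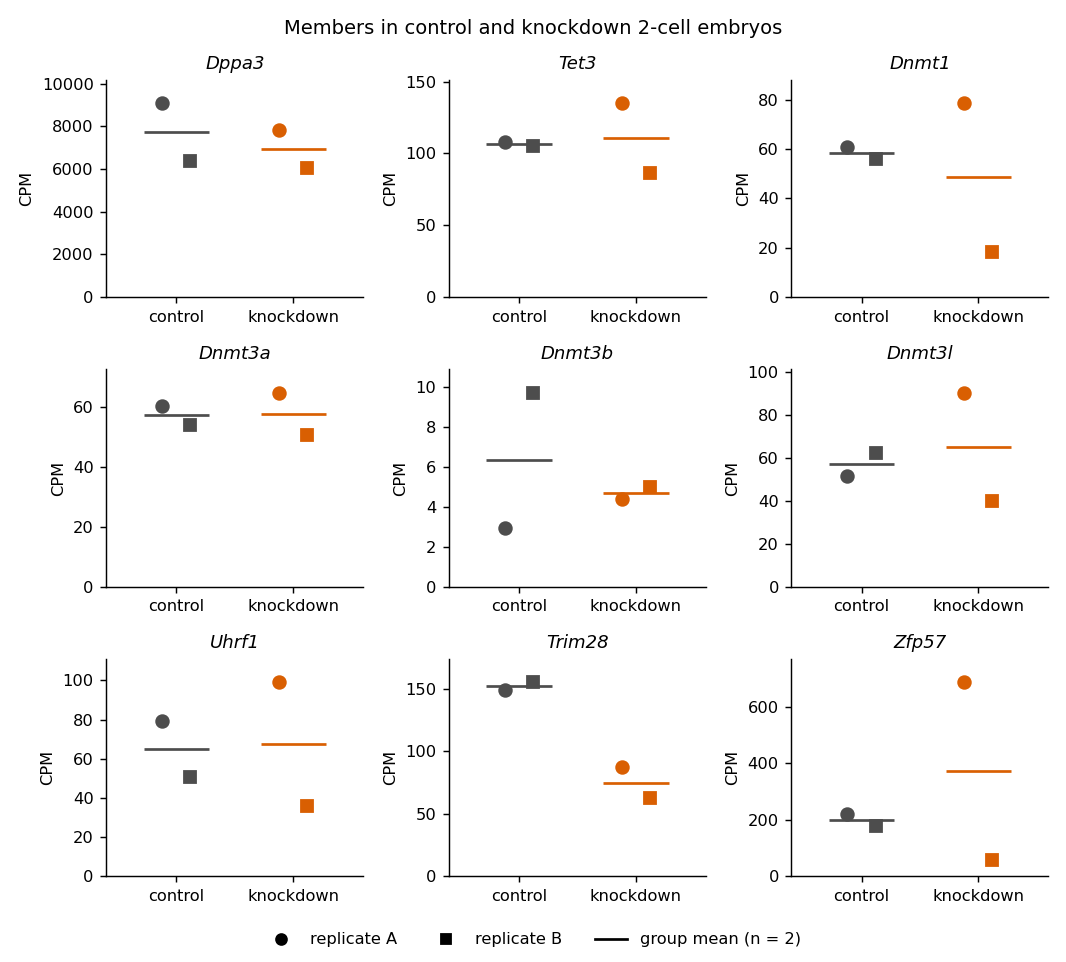
CPM of the 9 members (vertical axes, each from 0) in 2 control and 2 knockdown libraries, with replicate A as circles, replicate B as squares and the group mean as a bar. Trim28 is the panel in which both knockdown libraries (87.2 and 62.5 CPM) are below both controls (149 and 155 CPM), and Zfp57 shows the widest gap between knockdown replicates (687 and 57.8 CPM).

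Most members were lower in knockdown replicate B than in replicate A, and for 4 of them the gap was wider than that of the median gene (0.69 log2 units in either direction). On the log2(CPM + 1) scale, 7 of the 9 members were above the control mean in knockdown replicate A, and 0 of 9 were above it in replicate B, where of all 13332 genes 7846 and 5644 were above it. The median offset of the members was 0.34 in replicate A and -0.49 in replicate B, where the median over all genes tested was 0.14 and -0.17. Trim28 and Dnmt3b were below the control mean in both replicates. For Zfp57, 0.248% of the genes tested had replicates at least as far apart as its 3.55 log2 units. The share was 5.63% for Dnmt1 (2.04 units), 16.8% for Uhrf1 (1.43 units) and 26.3% for Dnmt3l (1.16 units), while for Dppa3, Dnmt3a, Trim28, Tet3 and Dnmt3b it was 52.9% to 87.4%.

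Oocyte transcripts moved with this gap. The 10 oocyte and maternal markers summed to 4430 and 3813 CPM in controls, 8682 CPM in knockdown replicate A and 3970 CPM in replicate B. In replicate A, 8 of the 10 were above the control mean (median offset 1.28), and in replicate B 8 of the 10 were below it (median offset -1.31). All 10 had at least 1 CPM in every library of the knockdown table. The 2-cell markers were lower in both knockdown replicates, with sums of 3735 (A) and 4002 (B) CPM against 5119 (A) and 4789 (B) in controls. Of the 11 tested, 10 were below the control mean in replicate A (median offset -0.44) and 9 in replicate B (median offset -0.29), the direction in which Trim28 lay. The part of either marker list in the members' values was not tested. In bulk embryos, fewer cells carrying a transcript and less of it per cell cannot be told apart.

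Which knockdown library was kept set the direction of Zfp57 and Dnmt1, though not that of Trim28. Without knockdown replicate A the log2 fold change of Zfp57 was -1.77 (limma, adjusted p = 0.000584), and without replicate B it was 1.78 (limma, adjusted p = 0.000254). For Dnmt1 the values were -1.61 (limma, adjusted p = 0.00548) and 0.42 (limma, adjusted p = 0.512). Trim28 stayed lower, at -1.27 without replicate A (limma, adjusted p = 0.00434) and -0.79 without replicate B (limma, adjusted p = 0.097). In these fits the lone knockdown library is assumed to vary like the controls, so the adjusted p does not carry the spread between knockdown replicates. Members called were 3 without replicate A, all lower (Dnmt1, Trim28 and Zfp57), and 1 without replicate B (Zfp57, higher); over all genes the counts were 1894 and 414.

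**Figure D2:**
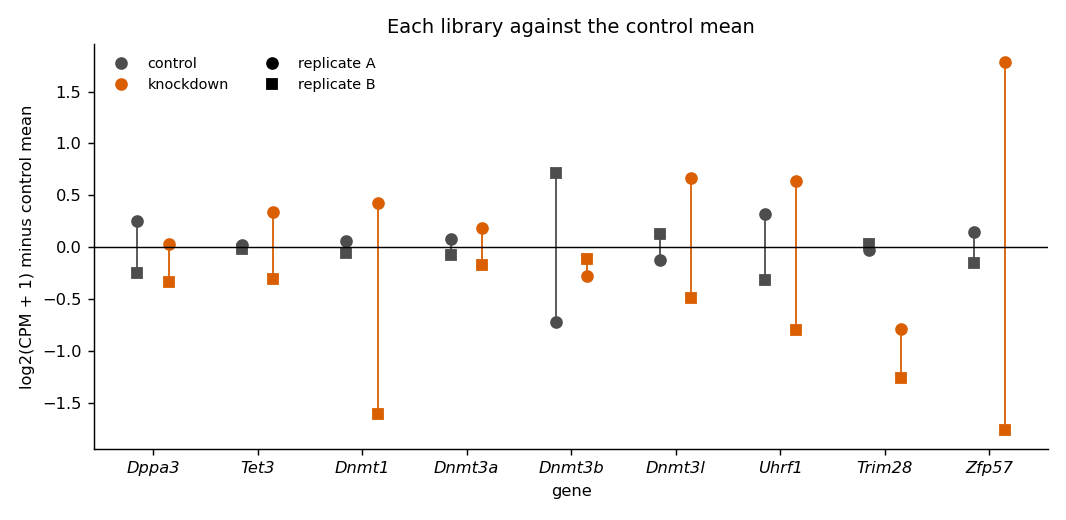
Difference of each library from the control mean on the log2(CPM + 1) scale (vertical axis) for the 9 members, controls in grey and knockdown in orange, replicate A as circles and B as squares, joined by a line within a group. Knockdown replicate A lies above 0 for 7 members and replicate B for 0, and Trim28 lies below 0 in both (-0.79 and -1.27).

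Other genes of the same machinery, a list of 49 that contains none of the 9, were mixed. Of its 47 genes tested, 0 passed (limma; 2 at an unadjusted p under 0.05), 22 had a log2 fold change above 0 and 25 below it, and the median was -0.05. The groups did not overlap for 15 of the 47, 7 higher and 8 lower in knockdown, against 36.5% of all genes (18.1% higher and 18.4% lower). The lowest fold changes at a mean of 10 CPM or more were -1.02 for Tle6, a subunit of the subcortical maternal complex, -0.83 for Ipo5, a nuclear import receptor, and -0.73 for Mbd4, a glycosylase of mismatches at CpG sites. The highest were 1.14 for Ooep, another subunit of that complex, 0.96 for Kdm1b, a histone demethylase needed for maternal imprints, and 0.88 for Gadd45a, a stress-response gene. Kdm1b was at 52.5 (A) and 35.5 (B) CPM in controls against 92.2 (A) and 78.8 (B) with knockdown, with no overlap (limma, adjusted p = 0.859). As for Zfp57, 1 knockdown replicate of Ooep was above both controls and the other below them, at 949 (A) and 49.5 (B) CPM against 134 (A) and 72.7 (B).

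Zfp57 and Trim28 guard control regions of imprinted genes, though not every imprinted gene need depend on them. Of a list of 30, 17 could be tested, 0 passed (limma; 1 at an unadjusted p under 0.05), and the median log2 fold change was 0.00093, with 9 above 0 and 8 below it. Among the 8 at a mean of 10 CPM or more, the fold changes ran from -0.51 for Mest and -0.32 for Zrsr1 and -0.23 for Igf2r to 0.25 for Phlda2, 0.33 for Mcts2 and 0.78 for Inpp5f. Snrpn, a paternally expressed imprinted gene chosen here after its values were seen, was at 59.9 (A) and 92.5 (B) CPM in controls against 67.3 (A) and 74.0 (B) with knockdown.

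**Figure D3:**
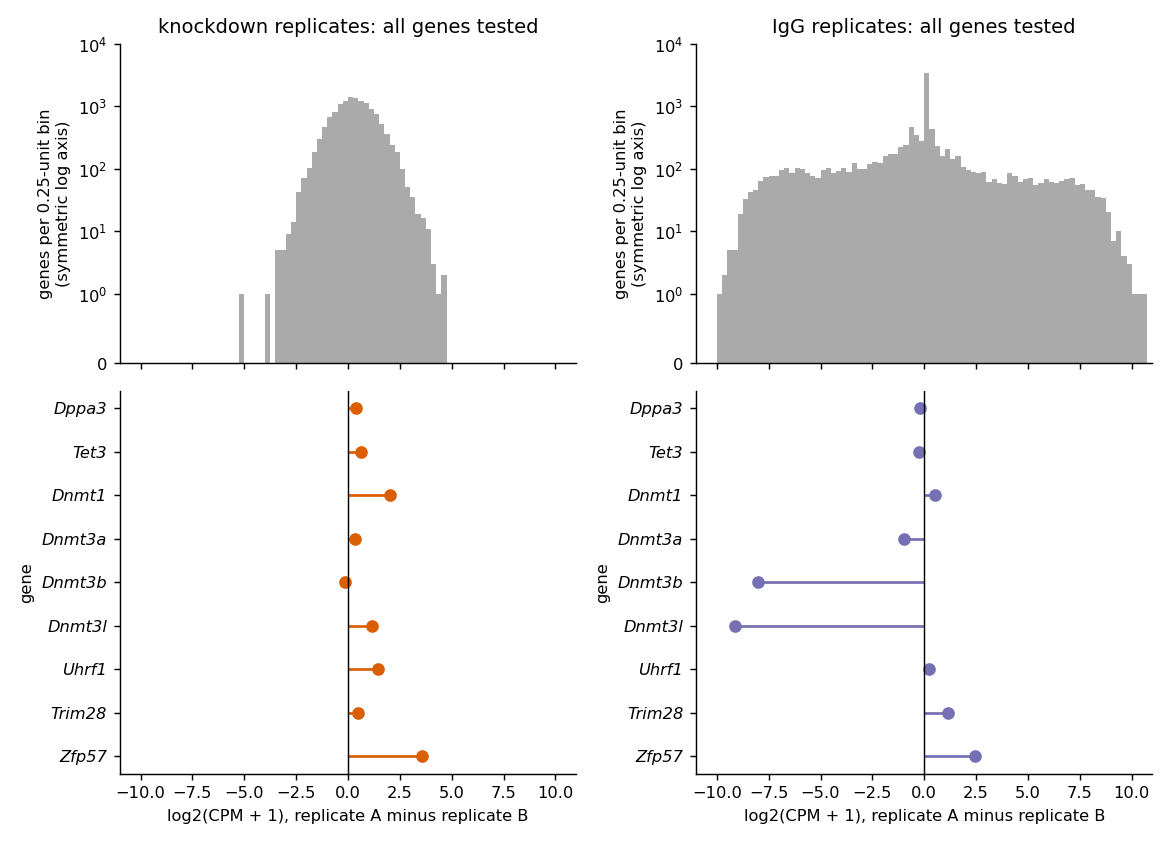
Difference between replicates A and B on the log2(CPM + 1) scale (horizontal axes), for knockdown (left) and IgG (right): histograms of all genes tested above (bins of 0.25 units, symmetric log axis) and the 9 members as points below. Among knockdown replicates Zfp57 stands at 3.55 units, and among IgG replicates Dnmt3l and Dnmt3b stand at -9.13 and -8.02.

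The immunoprecipitation asks which RNAs come down with His-tagged Eif1ad3 beyond the IgG background. Of the 9 members, 1 passed, Dppa3, higher with His (limma over 11232 genes; 36.6% of all genes were called, 35.7% higher and 0.917% lower). At an unadjusted p under 0.05 it was again 1 member, against 44.6% of all genes. The groups did not overlap for 3 members higher with His (Dppa3, Tet3 and Dnmt3a) and for 2 lower (Dnmt1 and Uhrf1), against 54.1% and 9.06% of all genes (5 of 9 members in either direction, against 63.1%). The median log2 fold change of the members was 0.27, against 2.01 over all genes, or 2.14 when genes with 0 reads in both IgG libraries are set at their bound (the His mean over the mean of the 3-read floors of the 2 IgG libraries). With quantile normalization this order turned, with the members' median at 0.55 and that of all genes at -0.08.

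Most members were detected in both IgG libraries. All members but Dnmt3l had reads in both, 8 of 9 against 41.0% of the genes tested, though Dnmt3b had 1 read in replicate A. At least 10 CPM in both was reached by 7 of 9, against 20.1%. The genes tested reach down to 1 CPM and were not matched to the members by level, and the part of abundance in these shares was not tested. The number of genes tested with 0 reads in both IgG libraries was 3162 (28.2%), and 0 of these were members. Such genes could pass the filter on low values only through the His libraries, which fixes their direction. They are part of the all-gene median and of the share called higher, so the distance of a member from that median rests in part on this filter. The fold change of the median gene moved with the scaling. Rescaling each library to its median over genes above 0 moved the median fold change of all genes to 2.34, rescaling to the median over genes above 0 in all 4 libraries to 1.79, quantile normalization to -0.08, and rescaling to the median of all genes tested, zeros included, to -1.67. The all-gene calls were 4008 higher and 103 lower as deposited, and 2080 higher and 2003 lower under the last of these. That last scaling multiplies all genes of a library by 1 factor, and it put all 9 members below 0, from -1.07 for Dnmt3l to -6.43 for Trim28, so a sign turned by it is particular to no member. With it Dppa3, Tet3, Dnmt1, Uhrf1 and Trim28 were called lower (limma, adjusted p = 0.0042 to 0.0157). DESeq2 on the recovered reads called 4766 higher and 747 lower. Marker sums also differed between the antibodies: the 10 oocyte markers summed to 12579 and 12742 CPM with His and to 3645 and 4313 CPM with IgG, and the 12 listed 2-cell markers to 1356 and 1330 CPM against 723 and 690.4 CPM. Their part in the members' values was not tested.

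Dppa3 was at 937 (A) and 1087 (B) CPM with IgG against 4547 (A) and 4343 (B) with His. Both His libraries were far above both IgG libraries. The means were 1012 ± 106 CPM and 4445 ± 144 CPM (SD, n = 2 each), a ratio of 4.39. On the log2 scale the difference was 2.14 (SE 0.09, limma, adjusted p = 0.00997), which is 0.13 above the median of all genes. Of all genes tested, 52.5% had a fold change as low or lower. The call was not kept with edgeR (2.06, adjusted p = 0.0547) or quantile normalization (2.15, limma, adjusted p = 0.140). With rescaling to the median that includes zeros, the value was -3.58 where the median gene was at -1.67.

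Dnmt3a was at 10.6 and 21.8 CPM with IgG (63 and 102 reads) and at 109 and 98.1 CPM with His, without overlap. Its means of 16.2 ± 7.90 and 104 ± 7.96 CPM differed 6.40-fold. Its log2 fold change was 2.68, with an interval of -0.015 to 5.38 and did not pass (limma, adjusted p = 0.113). It passed with DESeq2 on the recovered reads (2.42, adjusted p = 0.00122), without the trend in limma (2.68, adjusted p = 0.0442) and in the fits without IgG replicate A or B, and it was -2.87 with rescaling to the median that includes zeros.

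For Tet3 and Uhrf1 the deposited CPM of the 2 antibodies were close. Tet3 was at 450 and 534 CPM with IgG and at 604 and 579 CPM with His. Its log2 fold change was 0.27 (interval -0.37 to 0.91; limma, adjusted p = 0.460), or -1.74 relative to the median of all genes. Uhrf1 was at 1263 and 1060 CPM with IgG and at 1035 and 934 CPM with His, so both His libraries were just under both IgG libraries. Its log2 fold change was -0.23 (interval -0.67 to 0.20; limma, adjusted p = 0.341), or -2.24 relative to the median of all genes. In the deposited CPM the upper bounds of both intervals stay under the all-gene median of 2.01. That median includes the 3162 genes with 0 reads in both IgG libraries, whose direction the filter fixed. With quantile normalization Tet3 was at 0.55 and Uhrf1 at -0.11, where the all-gene median was -0.08. The sign of Tet3 turned with rescaling to the median over genes above 0 in all 4 libraries (-0.099), with DESeq2 (-0.054) and with rescaling to the median that includes zeros (-5.43), and that of Uhrf1 with rescaling to each library's median over genes above 0 (0.32). With zeros included Uhrf1 was at -5.94.

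Dnmt1 was at 161 and 111 CPM with IgG and at 97.2 and 66.7 CPM with His, again with His under IgG, and its log2 fold change was -0.73 (interval -2.81 to 1.36; limma, adjusted p = 0.549). Trim28 was at 854 and 385 CPM with IgG and at 387 and 304 CPM with His. His replicate A lay just above IgG replicate B, so its groups overlapped (log2 fold change -0.74, interval -2.28 to 0.80; limma, adjusted p = 0.399). The values of Dnmt1 and Trim28 were below 0 under every scaling run, but they ranged from -0.18 to -6.33 for Dnmt1 and from -0.19 to -6.43 for Trim28. Leaving out IgG replicate A gave -0.17 for Trim28 and leaving out IgG replicate B gave -1.31. For Dnmt1 these fits gave -0.46 and -0.99. Each rests on a lone IgG library, assumed to vary like the His libraries.

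The remaining members turned on a single IgG library. Zfp57 was at 382 and 405 CPM with His, against 384 CPM in IgG replicate A and 70.3 CPM in IgG replicate B. Dnmt3l was at 230 and 173 CPM with His, against 0 reads in IgG replicate A and 558 CPM (2612 reads) in replicate B. Dnmt3b was at 17.8 and 9.47 CPM with His, against 1 read in IgG replicate A and 302 CPM (1412 reads) in replicate B. For all 3 the His replicates lay between the IgG replicates or beside the higher of them, and the log2 fold changes were 1.25, 3.08 and -0.42 (limma, adjusted p = 0.468, 0.624 and 0.946). These are differences of mean logs: the mean CPM of Dnmt3l was lower with His (202 against 279 CPM), and its value ran from 1.95 with a pseudocount of 5 to 4.74 with a pseudocount of 0.1 and was -0.37 with edgeR. For Dnmt3b the means were 13.6 CPM with His and 151 CPM with IgG, and the value was -3.37 with edgeR. Such splits were common with IgG: 749 of 11232 genes (6.67%) had 0 reads in 1 IgG library and at least 100 CPM in the other, and 0 genes did so between the His replicates. Leaving out IgG replicate A gave -1.48 for Dnmt3l (limma, adjusted p = 0.00238) and -4.43 for Dnmt3b (limma, adjusted p = 0.0006), and leaving out IgG replicate B gave 7.65 (limma, adjusted p = 4.5e-05) and 3.59 (limma, adjusted p = 0.0086). For Zfp57 the values were 2.47 (limma, adjusted p = 0.000263) and 0.034. The lone IgG library is here assumed to vary like the His libraries.

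**Figure D4:**
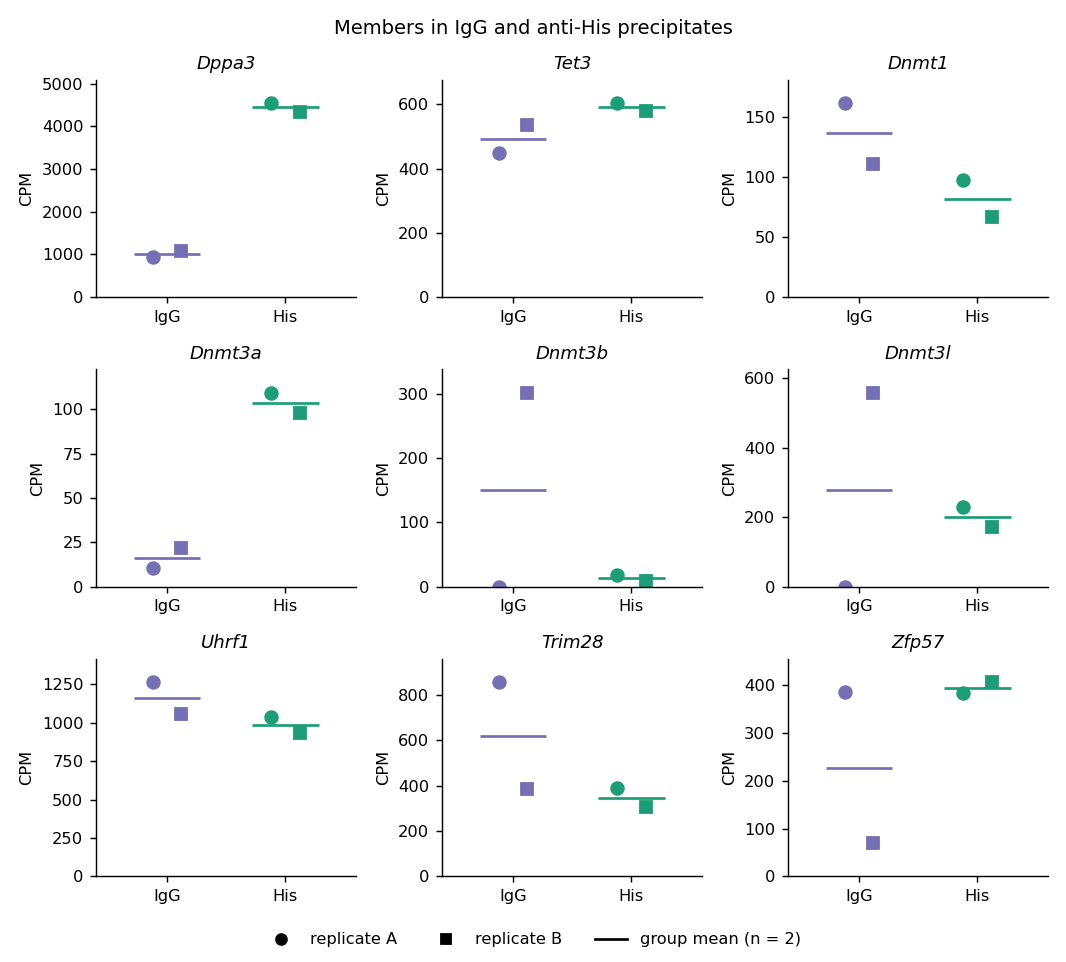
CPM of the 9 members (vertical axes, each from 0) in 2 IgG and 2 His libraries, with replicate A as circles, replicate B as squares and the group mean as a bar. Among the members whose groups do not overlap, Dppa3 and Dnmt3a have the widest ratios of means (4.39 and 6.40), and the IgG replicates of Dnmt3b (0.169 and 302 CPM) and Dnmt3l (0 and 558 CPM) are far apart.

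Among the 49 other genes of the machinery, 43 were tested and 6 passed (limma), 5 higher with His and 1 lower, where 36.6% of all genes passed (35.7% higher and 0.917% lower). Among the higher genes were Pcna, the replication clamp, Elp3, an Elongator subunit, Nlrp2, a maternal-effect gene, and Cbx3, a heterochromatin protein. Pcna, Elp3 and Nlrp2 had 0 reads in both IgG libraries, and Cbx3 had 2 and 0. With His, Pcna was at 48.7 and 26.6 CPM and Elp3 at 42.8 and 47.7 CPM (limma, adjusted p = 0.00997 each). The lower gene was Ooep, at 1066 and 925 CPM with IgG and 629 and 602 CPM with His (log2 fold change -0.69, SE 0.15, limma, adjusted p = 0.0443). The median of the 43 was 0.65, with and without bounds for genes at 0. At a mean of 10 CPM or more the lowest fold changes were -2.43 for Ipo5, -2.42 for Arid4a, a chromatin protein linked to imprint control, and -2.13 for Hells, a remodeler that supports DNA methylation, none of which passed. Tle6 had 0 reads in IgG replicate A, 75.5 CPM in replicate B, and 243 and 296 CPM with His (limma, adjusted p = 0.256).

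Of the 30 imprinted genes, 12 were tested and 6 passed (limma; 36.6% of all genes passed, 35.7% higher), all higher with His: Snrpn, Grb10, Igf2r, Cdkn1c, Peg10 and Kcnq1ot1. Apart from Snrpn, which had 15 reads in IgG replicate A and 0 in replicate B, these had 0 reads in both IgG libraries. Genes under 1 CPM in both IgG libraries could pass the filter on low values only through the His libraries, which fixes their direction; this holds for Pcna, Elp3, Nlrp2 and Cbx3 too. Snrpn was at 28.7 and 20.7 CPM with His (limma, adjusted p = 0.0469) and Grb10 at 7.41 and 17.3 CPM (limma, adjusted p = 0.0158). The median of the 12 was 2.96, or 3.27 with genes at 0 set at their bound. Mest, at 127 and 1.28 CPM with IgG and 176 and 153 CPM with His, did not pass (limma, adjusted p = 0.417), nor did Phlda2 (0.68), Plagl1 (0.68) or Dlk1 (-1.95).

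**Figure D5:**
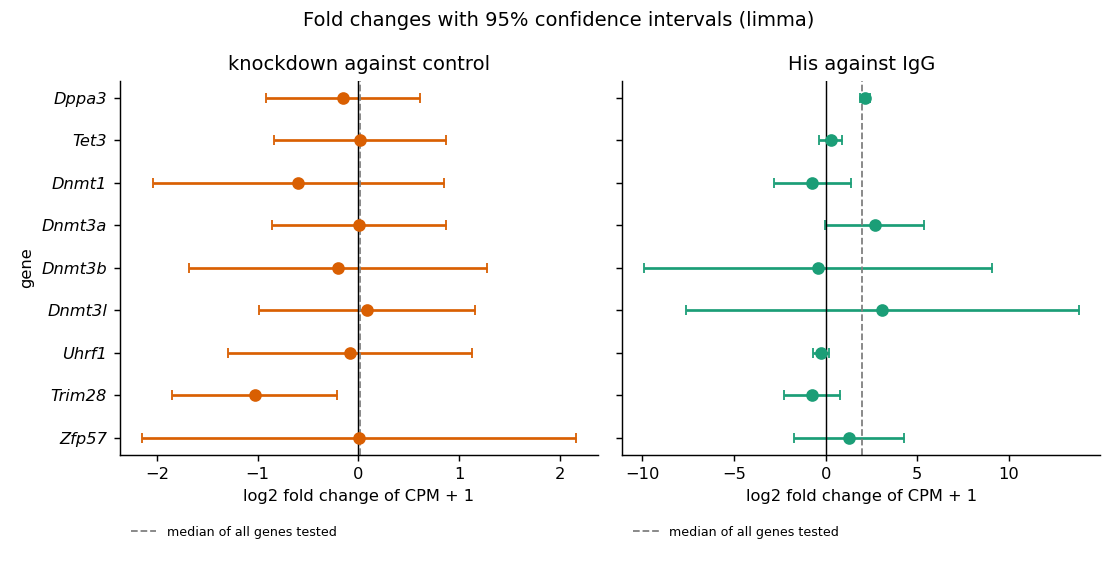
Log2 fold changes on the CPM + 1 scale (horizontal axes) with 95% confidence intervals from limma for the 9 members, knockdown against control (left) and His against IgG (right). The solid line is 0 and the dashed line the median of all genes tested (0.02 and 2.01); the right panel shows Dppa3 at 2.14 beside that median and Tet3 and Uhrf1 under it.

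The 2 tables were normalized separately and come from different injections, so levels across them are set side by side without a test. Genes at 1 CPM or more numbered 5148 and 5564 with IgG, 12246 and 12270 with His, and 12570 and 12761 in controls. CPM are shares of a library total, so a higher CPM with an antibody need not mean more of an RNA. Uhrf1 averaged 65.1 ± 20.1 CPM in control embryos, 1162 ± 144 CPM with IgG and 985 ± 71.3 CPM with His (SD, n = 2 each). Tet3 averaged 107 ± 2.05 CPM in controls, 492 ± 59.8 CPM with IgG and 591 ± 17.2 CPM with His. Dppa3 went the other way, with 7740 ± 1905 CPM in controls, 1012 ± 106 CPM with IgG and 4445 ± 144 CPM with His. These 3 were chosen after their values were seen. Of the other members, Dnmt1, Dnmt3b, Dnmt3l, Trim28 and Zfp57 also had means above those of control embryos with both antibodies, and Dnmt3a was below them with IgG (16.2 against 57.3 CPM) and above them with His (104 CPM). For Dnmt3b, Dnmt3l and Zfp57 the IgG mean rests on 1 library, and the other IgG library was below the control mean.

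Genes with the most similar profile were sought over the 8 libraries, as the root mean square difference of log2(CPM + 1) deviations from the mean of a gene in its table, among 7262 genes with at least 10 CPM in control embryos. Nearest to Dppa3 were Psmd8 (0.114), Bbs5 (0.18) and Rapgef2 (0.19), where the median gene was at 1.06. Nearest to Dnmt1 were Psmd4 (0.17), Ccdc12 (0.20) and Echdc3 (0.21), with a median of 1.51. Nearest to Trim28 were Ptdss2 (0.13), Mcm2 (0.16) and Eef2 (0.17), with a median of 1.47. The 8 points are the same libraries for every gene, and the measure is a description with no test.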

How the data were processed

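The deposited tables hold CPM, made by the authors from reads per gene; per the submitters' processing notes the tools were Trim Galore 0.6.7, FastQC, HISAT2 2.2.1, featureCounts 2.0.1 and edgeR with build GRCm39. Annotation, strand setting and gene filter are not given in the sources used here. CPM values were whole multiples of 1 read for 100% of values above 0 (tolerance 0.01), which gave reads and library totals. Libraries were prepared by Smart-seq2, which uses PCR without molecular identifiers, so floors of 3 reads cover counting error only.

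Tests used limma 3.58.1 (R 4.3.3) on log2(CPM + 1), two-sided, with trended empirical Bayes, Benjamini-Hochberg adjustment and a threshold of 0.05, for genes reaching 1 CPM in 2 or more of the compared libraries. Fold changes on this scale understate those of low genes. Of 12 labelled samples 8 were used; the names of 4 value columns fit more than 1 sample, so these columns, and the 6 planned results on input and total RNA, were not used here. Members and lists were chosen with earlier results of these data known. Genes named are the 9 members, Eif1ad3, and per list and comparison the 3 highest and 3 lowest fold changes at a mean of 10 CPM or more plus those that passed, of which 1 is not reported here; other genes are said to be chosen after their values were seen. Profile likeness was computed for Dppa3, Dnmt1 and Trim28. Alternatives were pseudocounts, filters, scalings, a block for the replicate letter, limma without trend, leaving out each library, and count tests on recovered reads with DESeq2 1.42.0 and edgeR 4.0.16. Promoter sequences are from RefSeq.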

Additional observations from a re-analysis of the deposited data

How the results depend on the processing

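A pair of scalings were added after seeing the data: rescaling to each library's median over genes above 0, and to its median over genes tested with zeros included. A single fit over all libraries of the immunoprecipitation table was not run, because it is the same fit as His against IgG on the libraries used. The cause of the changes below was not tested.

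In the knockdown comparison the count of 0 genes became 2 with the replicate block and 15 with DESeq2, and 0 to 1894 when 1 library was left out. The count of 0 members ranged from 0 to 3 when 1 library was left out and was 0 in the other settings, the replicate block included. The letters A and B share only a letter: deviations of libraries with the same letter correlated at 0.146 in the knockdown table and -0.014 in the other, and in neither table did the block change a call of a member. With median rescaling over genes above 0 in all libraries, over each library's genes above 0 and with zeros included, which shift all genes of a library alike, Tet3 (0.02 as reported) was at -0.038, -0.032 and -0.035, Dnmt3a at -0.051, -0.046 and -0.048, and Zfp57 at -0.049, -0.043 and -0.046. Uhrf1 was at 0.012 with edgeR and 0.0066 with DESeq2. Leaving out 1 library moved Dppa3 from -0.41 to 0.10, Tet3 from -0.30 to 0.34, Dnmt1 from -1.61 to 0.42, Dnmt3a from -0.17 to 0.18, Dnmt3b from -0.92 to 0.52, Dnmt3l from -0.49 to 0.66, Uhrf1 from -0.80 to 0.63 and Zfp57 from -1.77 to 1.78. Trim28 stayed lower in every setting run (-1.27 to -0.79).

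For His against IgG, 4111 genes were called as reported, 2356 when a mean of 5 CPM was required, 0 with quantile normalization (2339 at an unadjusted p under 0.05) and 0 with edgeR (4592), and 6 to 7679 when 1 library was left out. The 1 member called became 0 with quantile normalization and with edgeR, 2 without trend and with DESeq2, 5 (all lower) with zeros included, and 1 to 6 when 1 library was left out. Over all 11232 genes tested, 5513 were called with DESeq2, and 2003 were called lower with zeros included. Dnmt3b was at 0.54 with a pseudocount of 0.1 and 0.18 with each library's genes above 0. Tet3 was at -0.099 with median rescaling and -0.054 with DESeq2, Dnmt3l at -0.37 with edgeR and -0.57 with DESeq2, and Uhrf1 at 0.32 with each library's genes above 0. With zeros included, Dppa3 was at -3.58, Tet3 at -5.43, Dnmt3a at -2.87, Dnmt3l at -1.07 and Zfp57 at -4.44. Leaving out 1 library moved Dnmt3b from -4.43 to 3.59 and Dnmt3l from -1.48 to 7.65. Depth limits what low values can show: Dnmt3b had 1 to 242 reads outside IgG replicate B, and Dnmt3l 0 in IgG replicate A.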
